A study of Homo sapiens with 12 samples.

Results

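PC9 is a lung adenocarcinoma cell line whose growth depends on a mutant epidermal growth factor receptor (EGFR), and erlotinib is a small molecule that inhibits the kinase of that receptor. The comparison described here set PC9 cells that had been growing in 1 µM erlotinib for 28 days, which the submitters call drug-tolerant expanded cells (DTEC), against untreated cells of the same line. Membership came from the treatment labels alone, and it takes in 6 of the 12 libraries of the study: 3 DTEC cultures and 3 untreated cultures, all with wild-type TDP1, a DNA repair enzyme that the study deleted in another group. Every gene was followed, and 17115 of the 62754 gene identifiers in the count table had enough counts to be tested.

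All cells came from a subclonal PC9 line and grew in RPMI-1640 with 10% fetal bovine serum. Replicate cultures were split from 1 starting flask and then kept apart, so the p-values measure only the spread between such sister cultures. That spread was estimated over all 12 libraries of 4 groups, the TDP1-deleted group included. Polyadenylated RNA was sequenced, and all libraries carry the same batch label. No untreated culture kept for 28 days was among the libraries, so drug and time in culture cannot be told apart. A further 3 wild-type cultures, harvested on day 7 of the same dose and labelled drug-tolerant cells (DTC), are given beside the 28-day values to show whether a difference was already present early in treatment.

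Signals from EGFR run mainly through the RAS-ERK cascade and through PI3K and AKT. ERK activity switches on a set of fast-responding genes, among them the DUSP phosphatases and Sprouty proteins that damp the same cascade, while AKT keeps the FOXO transcription factors out of the nucleus and so holds their target genes down. Inhibitors of EGFR lower both outputs in sensitive cells, and cells that later grow out in the presence of the drug are studied for which of these outputs come back.

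The 6 libraries held 25572691 to 38219562 estimated counts each. Levels are given as CPM, counts scaled to a common library size with TMM factors, in the order of replicates 1 to 3, and a gene is said to have risen or fallen where the edgeR quasi-likelihood test gave a Benjamini-Hochberg adjusted p under 0.05. In DTEC 52.3% of tested genes were called, 26.0% higher and 26.3% lower (13.2% and 6.7% by at least 2-fold), with a median log2 fold change over all tested genes of 0.02. The shares of 26.0% and 26.3% are the ones to set beside each count of list members against untreated cells below. Against DTC 55.4% were called, 28.8% higher and 26.6% lower in DTEC. The 7 epithelial markers chosen for these cells summed to 12286 to 12938 CPM in untreated libraries and 10388 to 13016 CPM in DTEC libraries. None of them rose and 2 fell, the adhesion molecule EPCAM (714, 590.1 and 598 to 482, 429.7 and 412 CPM) and EGFR, with a median log2 fold change of -0.17; the keratins KRT7, KRT8, KRT18 and KRT19 and CDH1, the adhesion molecule E-cadherin, were not called. With total-count scaling 2 of the 7 rose and 1 fell. Of 7 fibroblast markers only COL1A1 reached enough counts to test, and it rose from 8.27, 7.79 and 8.83 to 10.9, 12.2 and 14 CPM. None of 4 testable leukocyte markers was called. Of 3 testable endothelial markers 2 rose: the adhesion molecule PECAM1 went from 35.2, 29 and 32 to 91.6, 89.6 and 95 CPM, and VWF from 0.0299, 0.135 and 0.202 to 0.426, 0.267 and 0.522 CPM, a call lost without untreated replicate 1 (adjusted p = 0.0687) or DTEC replicate 3 (0.0715). CDH5 was not called, and KDR, TEK, CLDN5 and EMCN had too few counts to test. The part of these markers in the results was not tested. Where fewer than 6 of a gene's 12 library counts were whole numbers, its reads were divided with other genes and its level is uncertain to that extent. This was so for 51 of the genes named here: ABCC3, AKR1B10, ASNS, AXL, BOLA2, C3, C4A, C4B, CAPS, CARS1, CCT6A, CD276, CD74, CPT1A, CTSD, ELF3, FABP5, FN1, FOXO3, HLA-B, HLA-E, HRK, HSP90AA1, HSPA4L, HSPE1, IFITM1, IRS2, KRT15, KRT16, KRT5, KRT6A, KRT6B, KRT6C, KRT8, LDHA, LIG3, MUC20, MX1, NDRG1, NPM1, NQO1, NRG1, PGAM1, PPARA, PVR, SAA1, STAT2, STEAP4, TAP2, TFRC and TUBA1B. In such bulk libraries fewer cells of a state and less RNA per cell cannot be told apart.

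**Figure D1:**
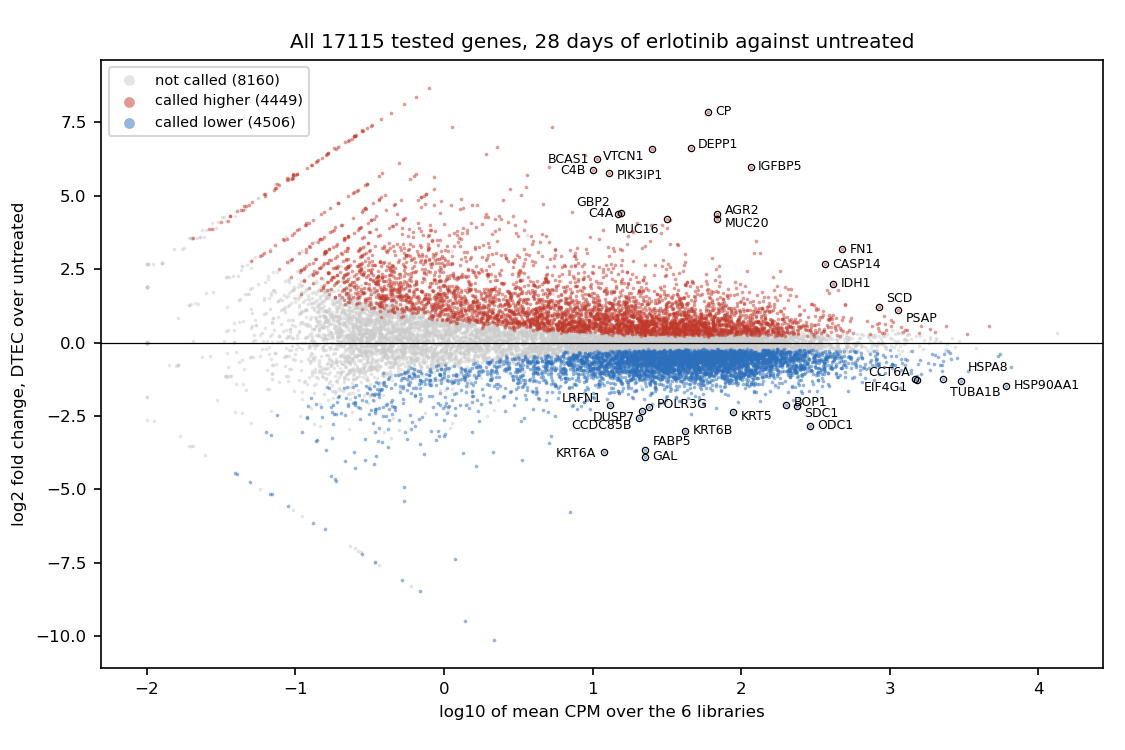
Log2 fold change of DTEC over untreated cells (vertical axis) against the log10 of the mean CPM over the 6 libraries (horizontal axis) for the 17115 tested genes; grey points were not called, red points were called higher (4449) and blue points lower (4506). Circled genes are those named by fold change or by difference in CPM, among them CP at 7.85 and ODC1 at -2.83 on the log2 scale; the stripes at low CPM are genes with a few counts.

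Several of the genes with the largest fold rise code for secreted and surface proteins. Among protein-coding genes of the 2-fold class that averaged 10 CPM or more in these 6 libraries, ceruloplasmin, DEPP1, VTCN1 and BCAS1 led by fold change. They were followed by IGFBP5, a secreted protein that binds insulin-like growth factors (ENSG00000115461, chromosome 2, 216672105 to 216695525), which measured 3.14, 4.38 and 3.32 CPM in untreated cells, 326, 279 and 299.6 CPM in DTC and 255, 218 and 210.3 CPM in DTEC. The untreated values lay far below all treated values at either time. Its log2 fold change in DTEC was 5.98 (SE 0.151, adjusted p = 6.46e-12). PIK3IP1, a transmembrane inhibitor of PI3K (ENSG00000100100, chromosome 22, 31281593 to 31292534), was nearly silent at 0.0896, 0.438 and 0.836 CPM before drug and stood at 24.6, 23.1 and 28.2 CPM after 28 days, against 25.2, 28.8 and 29 CPM at day 7. That rise of 5.78 on the log2 scale (adjusted p = 3.68e-08) became 6.62 without untreated replicate 3. Between DTC and DTEC the level of PIK3IP1 did not pass the test (adjusted p = 0.667).

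Some rises came after day 7 and others had been larger then. AGR2, an endoplasmic reticulum protein that helps fold mucins (ENSG00000106541, chromosome 7, 16791811 to 16833433), measured 7.11, 5.97 and 5.8 CPM untreated, 6.93, 13.5 and 12.6 CPM in DTC and 113, 123 and 159.5 CPM in DTEC. The DTEC values were higher than those of DTC by 3.58 on the log2 scale (adjusted p = 1.93e-08). GBP2, a GTPase induced by interferon, went from 1.88, 1.25 and 0.952 CPM to 26, 26.4 and 32.6 CPM in DTEC but had been higher at day 7, at 55.3, 40.6 and 46.5 CPM. MUC16 and MUC20, 2 membrane mucins, rose by 4.21 and 4.2 on the log2 scale. By difference in CPM the 2-fold class was led by PSAP, which encodes the precursor of lysosomal saposins (718 ± 17.5 to 1554 ± 82.7 CPM, mean ± SD, n = 3), and by the extracellular matrix protein fibronectin. SCD, which desaturates fatty acids, IDH1, the cytosolic isocitrate dehydrogenase, and CASP14, a caspase of epidermal differentiation, also had large gains: SCD went from 510.1 ± 8.89 to 1172 ± 13.5 CPM, IDH1 from 166 ± 12.3 to 665 ± 38.6 CPM and CASP14 from 99.6 ± 0.827 to 633 ± 41.3 CPM (mean ± SD, n = 3 each).

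Falling genes included enzymes and factors of growth. ODC1, the rate-limiting enzyme of polyamine synthesis (ENSG00000115758, chromosome 2, 10439968 to 10448504), measured 559.6, 485 and 488 CPM untreated, 102, 79.6 and 78.4 CPM in DTC and 67.8, 74.2 and 74.2 CPM in DTEC. Both treated groups lay far below the untreated one, with the DTEC values under all those of DTC. The fall was 2.83 on the log2 scale (SE 0.118, adjusted p = 8.63e-10), and the difference from DTC did not pass the test (adjusted p = 0.0563). POLR3G, a subunit of RNA polymerase III, dropped by 2.2 on the log2 scale, from 42.2, 38 and 37.8 to 6.79, 8.79 and 10.1 CPM. SDC1, the cell-surface proteoglycan syndecan-1, dropped by 2.15 on the same scale, from 341, 421 and 398 to 84.8, 83.4 and 93 CPM. LRFN1, a neuronal adhesion protein, decreased by 2.14 on the log2 scale. CCDC85B, a small nuclear protein, had untreated values of 12.8, 57.9 and 35 CPM that differed widely among themselves. Its fall by 2.57 on the log2 scale did not pass the test without untreated replicate 2 (adjusted p = 0.0685), DTEC replicate 1 (0.0729) or DTEC replicate 2 (0.06). In CPM the largest falls within the 2-fold class were in the chaperones HSP90AA1 (8936 ± 841 to 3220.1 ± 173 CPM, mean ± SD, n = 3) and HSPA8, the tubulin TUBA1B, the chaperonin subunit CCT6A and the translation initiation factor EIF4G1, which fell by 1.3, 1.25, 1.26 and 1.25 on the log2 scale in that order.

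**Figure D2:**
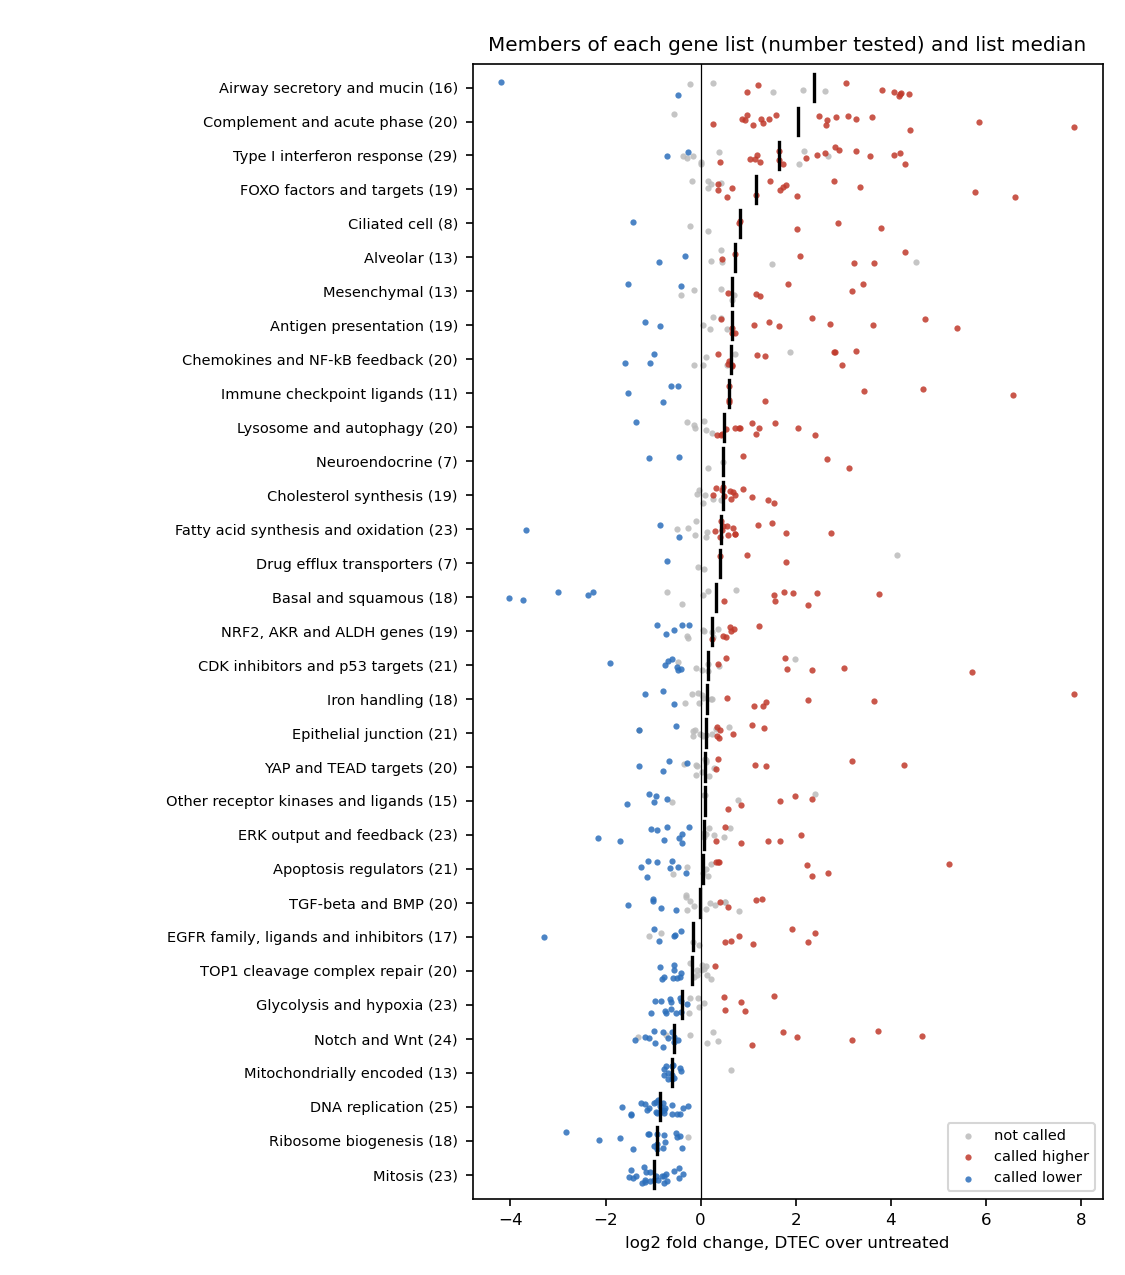
Each row is a gene list, with 1 point per tested member (red called higher, blue called lower, grey not called) at its log2 fold change of DTEC over untreated cells (horizontal axis) and a black bar at the list's median. Complement and acute phase genes have a median of 2.04 and DNA replication, mitosis and ribosome biogenesis genes medians of -0.86, -0.97 and -0.91, beside 0.02 over all tested genes.

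ERK target genes differed from untreated levels in either direction in DTEC, and most were higher than at day 7. Of 23 tested genes of ERK output and feedback, 6 rose, 10 fell and 7 were not called in DTEC against untreated cells, with a median log2 fold change of 0.08. Over all tested genes 26.0% rose and 26.3% fell, so the 6 rises are near the general share. Against DTC, 18 were higher and 3 lower, with a median of 1.79. With libraries scaled by total counts alone the split against untreated cells became 9 higher and 7 lower. DUSP6, the ERK-specific phosphatase, measured 83.8, 85.9 and 87.4 CPM untreated, 3.35, 2.41 and 2.11 CPM in DTC and 118, 121 and 128 CPM in DTEC. All DTEC values lay above all untreated ones (log2 fold change 0.52, SE 0.113, adjusted p = 0.00156). SPRY1, a Sprouty feedback inhibitor, had the same order of groups, with 37.4, 36.4 and 37.5 CPM untreated, 3.31, 3.41 and 3.46 CPM in DTC and 42.3, 47.6 and 49.5 CPM in DTEC (log2 fold change 0.32, not called with no count filter, adjusted p = 0.0541).

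ETV4 and ETV5, transcription factors downstream of ERK, had means of 112 and 100.2 CPM untreated and 121 and 114 CPM in DTEC and were not called (adjusted p = 0.319 and 0.352). Their DTC means were 13 and 20.0 CPM. EGR1, an immediate early factor, rose beyond the untreated level by 2.1 on the log2 scale (2.15, 3.31 and 3.58 to 10.1, 14.1 and 14.6 CPM). Its DTC values of 1.45, 5.53 and 2.14 CPM overlapped the untreated ones, so it had not been low at day 7. Other targets regained only part of the untreated level. SPRY4 measured 76.5, 88.5 and 89.2 CPM untreated, 3.14, 2.8 and 2.17 CPM in DTC and 34.8, 40.9 and 47.7 CPM in DTEC, a fall of 1.04 on the log2 scale. FOSL1, an AP-1 subunit, had 179, 206 and 191 CPM untreated, 25.4, 20.2 and 24 CPM in DTC and 71.8, 57.9 and 48.3 CPM in DTEC, which left it 1.7 below on that scale in DTEC. The growth drivers MYC and CCND1 (cyclin D1) were at 73.1% and 61.4% of their untreated means. DUSP7, another ERK phosphatase that was named for its fold change and is no member of the list, stayed low at 5.79, 7.87 and 7.97 CPM against 30.9, 40.6 and 36.3 CPM untreated, a fall of 2.32 on the log2 scale.

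Among the receptors and ligands of the EGFR family, ERBB2 and ERBB3 rose, and ligands moved in either direction. Of 17 tested members 7 rose and 6 fell, with a median log2 fold change of -0.15, which changed sign to 0.01 under scaling by total counts. ERBB3, a receptor that signals to PI3K when paired, measured 67.8, 76.2 and 73.3 CPM untreated, 131, 99.8 and 102 CPM in DTC and 279, 273 and 273 CPM in DTEC. Its level was higher at 28 days than in either of the other groups (log2 fold change over untreated 1.93, SE 0.11, adjusted p = 1.24e-08). ERBB2, its partner without a known ligand, went from 63.9, 74.8 and 69.2 to 131, 147 and 166 CPM (log2 fold change 1.1). The ligand EGF rose from 1.19, 1.01 and 1.07 to 6.27, 4.66 and 4.75 CPM and the feedback inhibitor ERRFI1 from 133, 124 and 119.8 to 237, 194 and 160.4 CPM. LRIG1, which promotes receptor breakdown, rose by 2.4 on the log2 scale from a mean of 0.299 CPM.

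Ligands that fell included HBEGF, from 54.9, 52.1 and 52.1 to 29.9, 30.3 and 26.3 CPM, AREG by 0.99 and TGFA by 0.41 on the log2 scale, the call of TGFA being lost with total-count scaling (adjusted p = 0.0772). The ERBB3 ligand NRG1 dropped to 0.305, 0.153 and 0.0275 CPM from 1.61, 1.55 and 1.64 CPM, a change of -3.30 that became -4.21 without DTEC replicate 1. EGFR itself decreased to 67.9% of the untreated mean, a call that was lost with total-count scaling (adjusted p = 0.099), upper-quartile scaling (0.0545), or without untreated replicate 2 (0.07), untreated replicate 3 (0.0689) or DTEC replicate 3 (0.0927). Outside that family 15 receptor and ligand genes were tested, of which 5 rose and 5 fell, beside 26.0% and 26.3% of all tested genes. INSR, the insulin receptor, rose from 9.05, 9.14 and 6.89 to 27.9, 27.9 and 24.4 CPM and IGF1R from 78, 74.1 and 76 to 139, 139.8 and 132 CPM. FGFR1 fell from 24, 30.4 and 26.8 to 9.14, 8.94 and 9.48 CPM and MET, the receptor of hepatocyte growth factor, from 212, 207 and 221 to 126, 139 and 129.7 CPM. AXL, a receptor often followed in EGFR inhibitor tolerance, had 52.3, 53.2 and 53.8 CPM untreated and 53.3, 58 and 57.9 CPM in DTEC and was not called (adjusted p = 0.509).

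**Figure D3:**
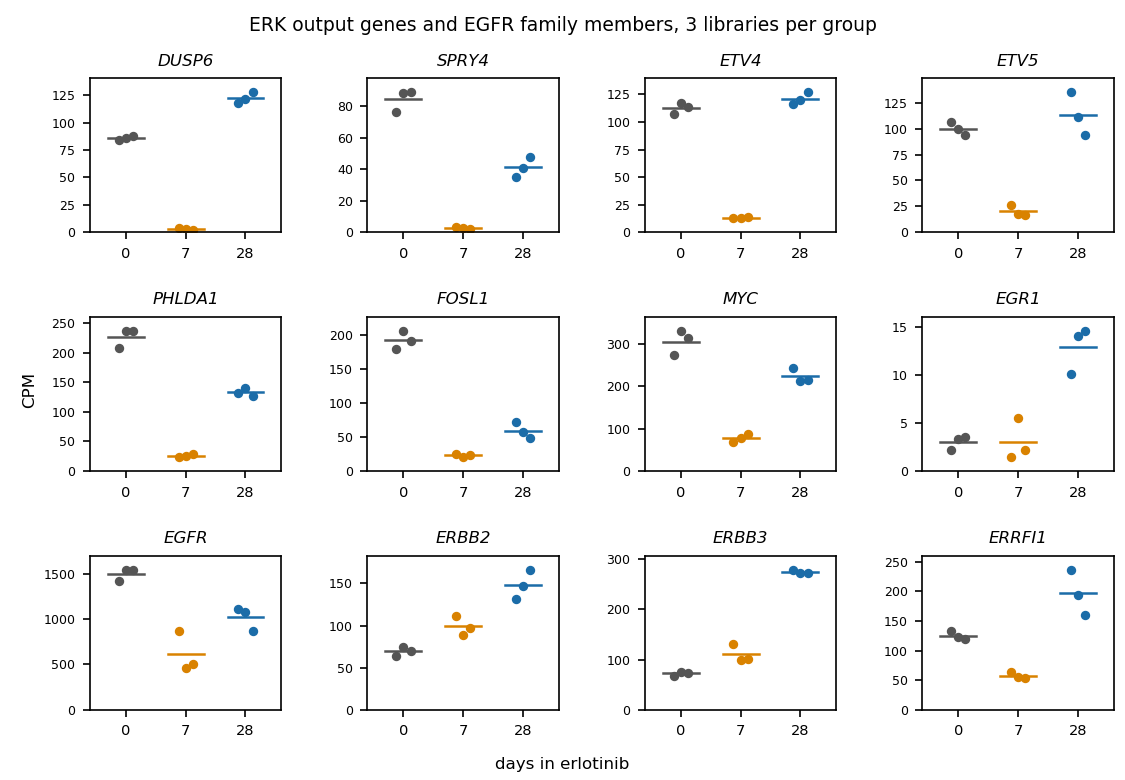
CPM (vertical axes, from 0) by days in erlotinib (horizontal axes) for genes of ERK output and of the EGFR family; each point is 1 library, 3 per group, and each bar is a group mean. DUSP6 and SPRY4 drop to a mean of 2.62 and 2.70 CPM at day 7 and reach 123 and 41.1 CPM at day 28, while ERBB3 goes from 72.4 CPM to 111 CPM at day 7 and 275 CPM at day 28.

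Most FOXO target genes were above their untreated levels at 28 days. Of 19 tested FOXO factors and targets, 14 rose and none fell, with a median log2 fold change of 1.16, and 10 were higher and 2 lower than in DTC. The count of rising members ran from 13 to 17 over the alternatives tried. The promoters of 2 rising members are shown because they hold the FOXO recognition motif GTAAACA, in capitals; each is the 200 bases before the gene start, 5′ to 3′ on the gene's strand, from RefSeq on GRCh38.p14. DEPP1 lies at chr10:44978810-44979009, minus strand, and TXNIP at chr1:145996580-145996779, minus strand.
DEPP1: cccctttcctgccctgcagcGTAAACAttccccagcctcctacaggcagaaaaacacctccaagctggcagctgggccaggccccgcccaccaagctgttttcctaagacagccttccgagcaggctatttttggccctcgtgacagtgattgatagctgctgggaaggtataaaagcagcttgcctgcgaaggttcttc
TXNIP: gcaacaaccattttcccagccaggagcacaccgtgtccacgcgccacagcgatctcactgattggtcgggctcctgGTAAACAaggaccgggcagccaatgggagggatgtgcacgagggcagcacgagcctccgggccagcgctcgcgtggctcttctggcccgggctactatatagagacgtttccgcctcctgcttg
The motif was searched on both strands in windows of 250 bases before to 50 after the start. It occurred in 4 of the 19 members (FOXO4, DEPP1, TXNIP and BCL2L11; 21.1%) and in 296 of 11889 tested genes with a promoter in the table (2.49%). A match is a description of the sequence and does not show that a factor was bound.

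DEPP1, a FOXO-induced regulator of autophagy, rose stepwise, from 1.02, 0.843 and 0.894 CPM to 23.9, 28.1 and 29.8 CPM in DTC and 88.1, 83.9 and 99.5 CPM in DTEC. The 3 groups did not overlap, and the DTEC level exceeded that of DTC by 1.73 on the log2 scale (adjusted p = 3.24e-08). TXNIP, which restrains glucose uptake, had 117, 106 and 106 CPM untreated, 157, 120.1 and 110.3 CPM in DTC and 322, 289.8 and 292 CPM in DTEC (log2 fold change 1.46). KLHL24, an adaptor of an ubiquitin ligase, rose from 6.45, 5.5 and 5.8 to 69.7, 63.7 and 47.9 CPM and CCNG2, a cyclin linked to cell cycle exit, from 8.18, 6.37 and 7.61 to 50.1, 54.7 and 50.5 CPM. FOXO4 rose by 2.03, FOXO1 by 0.65 and FOXO3 by 0.56 on the log2 scale; the call of FOXO1 was lost without untreated replicate 2 (adjusted p = 0.0638) or 3 (0.0532) or DTEC replicate 1 (0.0566) or 2 (0.0723). PDK4, which blocks pyruvate entry into the citric acid cycle, the transcriptional repressor BCL6 and the coactivator regulator CITED2 rose by 1.79, 1.16 and 1.73. Adaptors of the insulin receptor were not called: IRS1 had log2 fold change -0.17 and IRS2 0.22 (adjusted p = 0.309 and 0.0862). IRS2 was called under 5 alternatives, with adjusted p from 0.00711 with total-count scaling to 0.043 with DESeq2, among them the omission of untreated replicate 2 (0.0336).

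Genes of DNA replication and of mitosis were lower in DTEC than in untreated cells without exception among those followed. All 25 tested replication genes fell, with a median log2 fold change of -0.86, and all 23 mitosis genes fell, with a median of -0.97. Under the alternatives 22 to 25 and 20 to 23 of them were called lower, and none higher. Against DTC, 21 mitosis genes were higher in DTEC and 1 was lower, with a median of 0.85, whereas 9 replication genes were higher and 3 lower, with a median of 0.17. The promoters of the 2 lists held different motifs, so 2 members of each are shown: MCM6 and GINS2 with E2F motifs (TTTCCCGC or TTTGGCGC), and PLK1 and CCNB2 with the cell cycle genes homology region (TTTGAA), in capitals on either strand. Each sequence is the 200 bases before the start on the gene's strand, from RefSeq on GRCh38.p14, at chr2:135876444-135876643, minus strand for MCM6, chr16:85688955-85689154, minus strand for GINS2, chr16:23678689-23678888, plus strand for PLK1, and chr15:59104946-59105145, plus strand for CCNB2.
MCM6: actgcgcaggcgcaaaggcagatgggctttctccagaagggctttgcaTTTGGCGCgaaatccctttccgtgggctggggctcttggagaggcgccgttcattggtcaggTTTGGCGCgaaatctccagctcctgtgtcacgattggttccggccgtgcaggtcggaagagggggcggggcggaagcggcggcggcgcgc
GINS2: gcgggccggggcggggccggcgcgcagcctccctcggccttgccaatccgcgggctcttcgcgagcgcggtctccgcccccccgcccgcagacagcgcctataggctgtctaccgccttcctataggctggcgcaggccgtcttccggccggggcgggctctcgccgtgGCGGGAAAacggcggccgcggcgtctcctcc
PLK1: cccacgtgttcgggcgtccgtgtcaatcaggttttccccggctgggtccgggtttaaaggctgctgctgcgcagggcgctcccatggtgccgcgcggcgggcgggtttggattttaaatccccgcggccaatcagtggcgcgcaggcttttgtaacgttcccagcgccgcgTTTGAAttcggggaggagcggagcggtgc
CCNB2: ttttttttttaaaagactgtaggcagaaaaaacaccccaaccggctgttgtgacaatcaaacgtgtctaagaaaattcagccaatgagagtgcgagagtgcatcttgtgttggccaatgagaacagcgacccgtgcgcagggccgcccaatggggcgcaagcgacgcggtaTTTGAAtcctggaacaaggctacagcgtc
In windows from 250 bases before to 50 after the start, searched on both strands, an E2F motif was present in 13 of 21 replication promoters (61.9%), in 1 of 18 mitosis promoters (5.56%) and in 427 of all 11889 (3.59%). The TTTGAA motif was present in 13 of 18 mitosis promoters (72.2%), in 1 of 21 replication promoters (4.76%) and in 1184 of all 11889 (9.96%). These shares describe the sequences only.

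RRM2, the subunit of ribonucleotide reductase that makes deoxynucleotides in S phase, measured 389, 374 and 388 CPM untreated, 175, 136 and 156 CPM in DTC and 119, 119 and 126 CPM in DTEC. It was lower at 28 days than at 7 days (log2 fold change -0.35, adjusted p = 0.00689). GINS2, part of the replicative helicase, fell from 49.7, 45.1 and 45.3 to 14.6, 16.1 and 19.7 CPM and TYMS, thymidylate synthase, from 110.5, 103 and 106 to 33.8, 39.7 and 41.9 CPM, while CCNE1, the cyclin that opens S phase, fell by 1.25 on the log2 scale. MCM6, a helicase subunit, fell by only 0.38, from 149, 132 and 138 CPM through 71.2, 55 and 66.3 CPM to 104, 106 and 112 CPM, a call lost with total-count scaling (adjusted p = 0.094) or without untreated replicate 1 (0.0544). PLK1, a mitotic kinase, had 298, 348 and 329.5 CPM untreated, 29.1, 29.9 and 36.1 CPM in DTC and 106, 114 and 124 CPM in DTEC, so that the 28-day cells lay between the other groups without overlap. Its fall against untreated cells was 1.5 on the log2 scale (SE 0.108, adjusted p = 9.34e-08). CDC20, which activates the anaphase-promoting complex, the ubiquitin-conjugating enzyme UBE2C and the midzone kinesin KIF23 fell by 1.45, 1.41 and 1.35. The proliferation antigen MKI67 stood at 56.6% of its untreated mean in DTEC.

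Ribosome production genes were reduced too. Of 18 tested genes 17 fell and none rose (median -0.91), and 17 were higher than in DTC. The polyamine enzyme ODC1, described above, is counted in this list. BOP1, which processes ribosomal RNA, had means of 328 CPM untreated, 36.6 CPM in DTC and 75 CPM in DTEC. The small subunit factor RRP9, the box C/D core protein NOP56 and the nucleolar proteins NCL and NPM1 fell by 1.7, 1.42, 1.08 and 0.92 on the log2 scale.

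**Figure D4:**
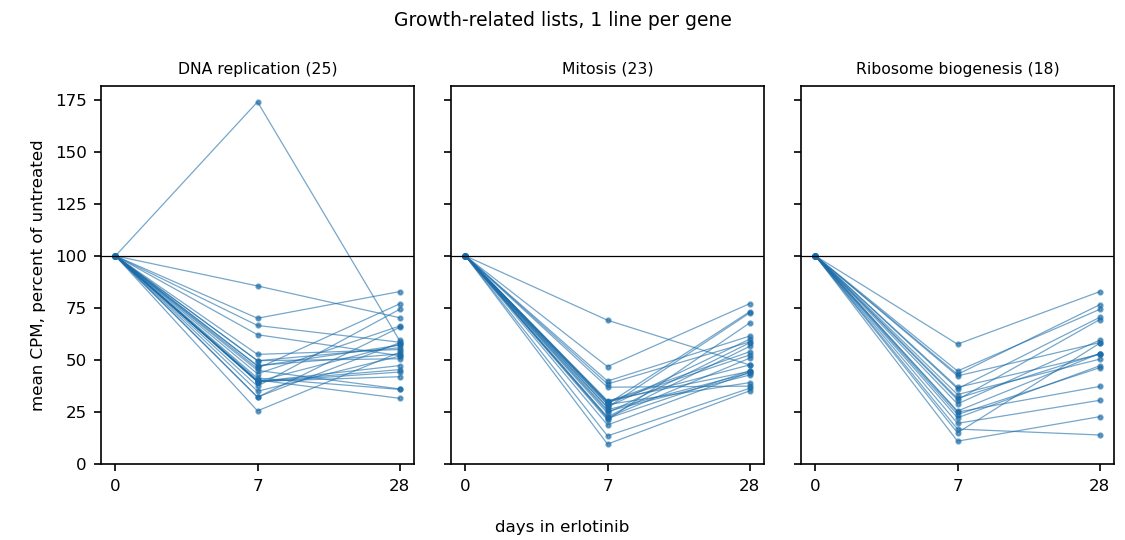
Mean CPM of each gene as a percent of its untreated mean (vertical axis) at 0, 7 and 28 days of erlotinib (horizontal axis), 1 line per gene, for the lists of DNA replication (25 genes), mitosis (23) and ribosome biogenesis (18). All lines end below 100 at day 28, although 1 replication gene, CCNE2, is above 100 at day 7.

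Cell cycle inhibitors did not move as a block: of 21 CDK inhibitors and p53 targets 7 rose and 7 fell, the latter 4 to 7 over the alternatives. Of all tested genes 26.0% rose and 26.3% fell. CDKN2B, the CDK4 and CDK6 inhibitor p15, measured 8.36, 9.54 and 9.69 CPM untreated, 140.3, 136 and 131 CPM in DTC and 76.7, 79.3 and 67.9 CPM in DTEC (log2 fold change 3.02, adjusted p = 2.02e-10). TP53INP1, a stress protein induced by p53 and other factors, rose from 0.119, 0.135 and 0.144 to 6.97, 7.33 and 7.04 CPM. The DTEC values of both were below those of DTC and above the untreated ones. CDKN1A, the inhibitor p21, was high only at day 7: 8.78, 10.2 and 9.83 CPM untreated, 57.3, 56.7 and 61 CPM in DTC and 6.46, 5.42 and 5.19 CPM in DTEC, a fall of 0.75 against untreated cells. AEN, a p53-induced nuclease, fell by 1.9.

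Apoptosis regulators were mixed, with 7 of 21 higher and 8 lower, beside 26.0% and 26.3% of all tested genes. Their median was near 0 and changed sign between alternatives. Several BH3-only genes, which promote cell death by binding BCL2 proteins, rose: BMF from 3.14, 3.51 and 4.12 to 23.5, 21.5 and 24.2 CPM, BBC3 from 1.43, 1.65 and 1.79 to 8.22, 7.87 and 8.63 CPM, HRK by 2.24 and BCL2L11 by 0.37 on the log2 scale. The death ligand TNFSF10 rose by 5.22 to 6.73, 5.04 and 4.48 CPM, or by 6.35 without untreated replicate 3. BCL2 and the death receptor TNFRSF10A fell by 1.13 and 1.26. BIRC3, a caspase inhibitor under NF-kB, had 6.8 CPM untreated, 177 CPM in DTC and 7.38 CPM in DTEC and was not called against untreated cells (adjusted p = 0.665).

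Complement and acute phase genes rose almost without exception. Of 20 tested, 19 rose and none fell (median log2 fold change 2.04), and 8 were higher and 9 lower than in DTC. CP, the copper-carrying ferroxidase ceruloplasmin, measured 0.567, 0.371 and 0.577 CPM untreated, 0.913, 0.412 and 0.469 CPM in DTC and 102, 113 and 142 CPM in DTEC. Its day 7 values overlapped the untreated ones, and it was high in every DTEC culture (DTEC over DTC 7.65 on the log2 scale, adjusted p = 3.6e-11). C3, the central complement protein, rose from 173, 187 and 180.4 to 508, 419 and 374 CPM, and LCN2, an iron-siderophore binder, from 179.9, 167 and 159 to 456, 401 and 399.9 CPM. HP (haptoglobin) and LBP, liver-type acute phase proteins, rose to means of 1.16 and 0.832 CPM in DTEC from 0.0911 and 0.0944 CPM. SAA1, another acute phase protein, was highest at day 7, with means of 2.16 CPM untreated, 54.8 CPM in DTC and 4.59 CPM in DTEC, and its call against untreated cells was lost under 5 alternatives, with adjusted p as high as 0.222 without DTEC replicate 1 and 0.066 and 0.113 without untreated replicates 1 and 3.

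C4A and C4B, near-identical genes of complement component 4, rose by 4.4 and 5.86 on the log2 scale. Their counts were fractional in all 12 libraries, so the division of reads between them is uncertain. The DTEC cultures differed in both, with C4B at 35.5, 17.4 and 6.65 CPM and C4A at 39.5, 29 and 20.1 CPM, and the C4B value became 5.14 without DTEC replicate 1.

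Most interferon-stimulated genes were higher than in untreated cells, and nearly all were lower than at day 7. Of 29 tested members 18 rose (14 to 19 over the alternatives) and 2 fell in DTEC. The median log2 fold change was 1.65, or 1.19 with genes that had no counts above the floor of 3 in untreated cells set at their lower bound. Some of the 18 calls rest on a few counts in DTEC. A member at the floor in both groups had 0 CPM untreated and 0.0305, 0.0382 and 0.055 CPM in DTEC, but 1.79, 3.86 and 3.58 CPM in DTC. Against DTC, 27 were lower and 1 was higher. STAT2, a transcription factor of the interferon response, measured 11.3, 12.6 and 15.2 CPM untreated, 91.8, 98.7 and 82.7 CPM in DTC and 43.7, 38 and 40.9 CPM in DTEC. Its groups did not overlap (log2 fold change over untreated 1.65, adjusted p = 2.19e-07). IFI6 went from 0.269, 0.371 and 0.0865 to 2.34, 1.99 and 2.58 CPM and BST2, a restrictor of virus release, from 0.388, 1.08 and 0.808 to 7.7, 5.12 and 4.15 CPM. MX1 was the member above its DTC level, with means of 1.38 CPM untreated, 1.75 CPM in DTC and 3.25 CPM in DTEC. ISG15 and IFIH1 stood at 1.52 and 3.34 CPM in DTEC after 19.2 and 14.1 CPM at day 7, with 1.52 and 3.33 CPM untreated. USP18, a protease that removes ISG15 from its targets, fell by 0.72. The interferon-stimulated response element was present, on either strand, in 14 of 22 member promoters (63.6%) and in 333 of all 11889 (2.8%).

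Antigen presentation genes followed a similar course, with 12 of 19 higher and 2 lower than untreated, and none higher and 15 lower than DTC. HLA-E, a chain of class I molecules, rose by 1.12 on the log2 scale. HLA-B measured 14.3, 15.2 and 14.4 CPM untreated, 345, 389 and 462 CPM in DTC and 82.2, 36.6 and 19.5 CPM in DTEC, where DTEC replicate 1 stood highest; its log2 fold change of 1.65 became 0.95 without that replicate. The class II pathway genes CD74, HLA-DMA and CIITA rose from near 0: CD74, the invariant chain, had 0.269, 0.236 and 0.49 CPM untreated and 19.9, 6.11 and 0.934 CPM in DTEC, HLA-DMA 9.74, 4.55 and 3.27 CPM and the class II transactivator CIITA 3.65, 1.53 and 0.742 CPM. Replicate 1 carried the highest value of CD74 and CIITA. Without it their log2 fold changes of 4.73 and 2.72 became 3.36 and 1.92, both still called. TAP2, a peptide transporter subunit, and NLRC5, the class I transactivator, fell by 1.17 and 0.86.

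Inflammatory mediators had mostly left the day 7 level: of 20 tested chemokine, cytokine and NF-kB feedback genes 16 were lower and 2 higher in DTEC than in DTC. Against untreated cells 11 rose (7 to 11 over the alternatives) and 3 fell. Some of the 11 were close to the floor. A cytokine gene among them had 0, 0 and 0.0288 CPM untreated and 0.0914, 0.153 and 0.0824 CPM in DTEC, after 1.22, 1.74 and 1.44 CPM in DTC. CXCL8, a neutrophil chemokine, had means of 0.637 CPM untreated, 17.8 CPM in DTC and 1.65 CPM in DTEC; its rise over untreated cells was not called without untreated replicate 2 (adjusted p = 0.0556) or DTEC replicate 1 (0.128). TNFAIP3, the NF-kB feedback inhibitor A20, measured 47.2, 50.6 and 55.1 CPM untreated, 187, 143 and 148 CPM in DTC and 20.3, 15.7 and 14.9 CPM in DTEC. It ended below the untreated level, a fall of 1.58 on the log2 scale (adjusted p = 4.89e-07). IL1B and LIF fell by 1.06 and 0.99.

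Immune checkpoint ligands split by gene, with 7 of 11 higher and 4 lower. VTCN1 (B7-H4), an inhibitory ligand of T cells, had 0.747, 0.27 and 0.519 CPM untreated, 78.9, 63.9 and 70.3 CPM in DTC and 74.8, 42.2 and 32.4 CPM in DTEC, and the difference between the treated groups did not pass the test (adjusted p = 0.101). CEACAM1, another inhibitory ligand, rose to 9.5, 5.73 and 6.46 CPM from 0.717, 0.54 and 0.721 CPM. CD274 (PD-L1) fell from 10.6, 11 and 10.9 to 4.11, 4.2 and 3.08 CPM (log2 fold change -1.52, adjusted p = 3.62e-06), and PDCD1LG2 (PD-L2), PVR and CD276 fell by 0.80, 0.63 and 0.47. The call of PDCD1LG2 was lost under 6 alternatives, with adjusted p from 0.0601 with upper-quartile scaling to 0.135 without untreated replicate 1, and without DTEC replicate 2 (0.09) or 3 (0.104).

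Genes of airway secretory cells rose in most tested cases. Of 16 tested secretory and mucin genes 9 rose and 2 fell, with a median log2 fold change of 2.39. MUC5B, a gel-forming airway mucin (ENSG00000117983, chromosome 11, 1223066 to 1262172), measured 18.2, 32.7 and 27.8 CPM untreated, 0.135, 0.235 and 0.381 CPM in DTC and 148, 234 and 271 CPM in DTEC. DMBT1, a secreted mucosal defence protein, had 3.05, 3.84 and 3.61, then 0.135, 0.0883 and 0.264 and then 34.8, 69.8 and 85.4 CPM in the same order of groups. Both genes were nearly off at day 7 and above the untreated level in each DTEC culture (log2 fold change 3.05 and 4.18). SPDEF, a transcription factor of goblet cells, took the same course, with 6.36, 8.16 and 7.79 CPM untreated, 0.913, 1.71 and 2.14 CPM in DTC and 13.4, 15.3 and 22.7 CPM in DTEC. MUC1, a membrane mucin, was already high at day 7 (30.5, 23.1 and 28.8 CPM) and reached 38.1, 37.3 and 37.8 CPM from 2.09, 2.39 and 2.28 CPM. BPIFB1, a secreted airway protein, rose by 3.83. TFF1, a trefoil peptide, fell from 3.26, 3.58 and 2.51 to 0.122, 0.115 and 0.247 CPM. The club cell gene SCGB1A1 and the gastric-type mucin gene MUC5AC had too few counts to test.

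**Figure D5:**
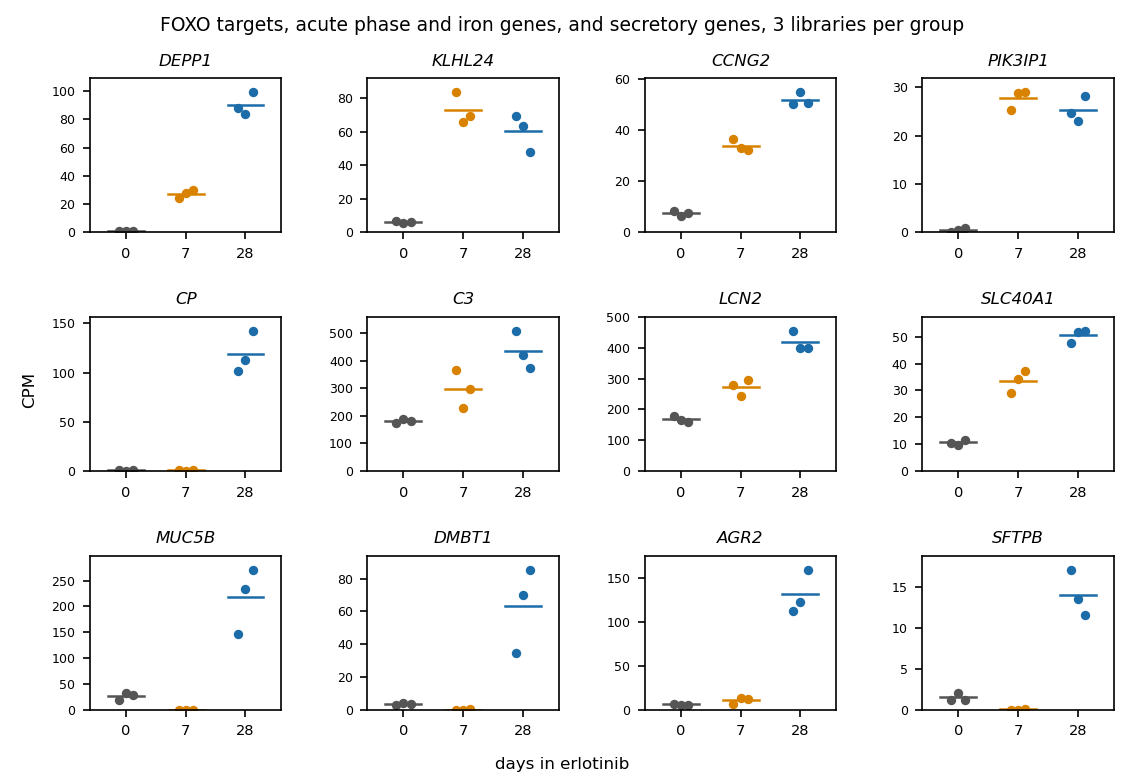
CPM (vertical axes, from 0) by days in erlotinib (horizontal axes) for 4 FOXO targets, 4 acute phase or iron genes and 4 secretory or alveolar genes; each point is 1 library, 3 per group, and each bar is a group mean. CP, AGR2, MUC5B, DMBT1 and SFTPB are highest at day 28 in every culture, whereas PIK3IP1 and KLHL24 are already high at day 7.

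Alveolar genes were less uniform, with 6 of 13 higher and 2 lower. SFTPB, surfactant protein B, measured 1.25, 2.09 and 1.18 CPM untreated, 0.0338, 0.0294 and 0.147 CPM in DTC and 17.1, 13.5 and 11.7 CPM in DTEC (log2 fold change 3.23, adjusted p = 2.62e-07). The type I cell genes HOPX and CLIC5 rose by 4.3 and 3.66 to means of 4.49 and 1.34 CPM. NKX2-1, the lung lineage factor, stayed near the counting floor at 0.0609, 0.0764 and 0 CPM. Among 8 tested ciliated cell genes 5 rose (3 to 5 over the alternatives): the master regulator FOXJ1 went from 0.0299, 0.236 and 0.0865 to 1.04, 1.34 and 2.5 CPM and CAPS from 5.38, 7.12 and 5.94 to 16.9, 22.9 and 34.9 CPM. Of 7 tested genes of the neuroendocrine list 3 rose and 2 fell. The number that fell ran from 0 to 2 over the alternatives and was 0 with total-count or upper-quartile scaling. POU2F3, the factor of tuft cells, was among the 3 that rose, from 0.179, 0.304 and 0.173 to 1.8, 1.91 and 2.01 CPM. NEUROD1 and CHGA, defining genes of the neuroendocrine lineage, had too few counts to test.

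Keratins of basal and squamous cells parted ways, 8 of 18 genes of that list rising and 5 falling. KRT5, the basal keratin, had 150.1, 151 and 143 CPM untreated, 86.5, 56.7 and 66.4 CPM in DTC and 34.1, 27 and 24.7 CPM in DTEC, a fall of 2.37 on the log2 scale. KRT6B fell by 3.0, and KRT15 rose from 26.7, 23.5 and 23.2 to 94.5, 107 and 150.4 CPM. KRT13, a keratin of suprabasal cells, rose by 1.75 (1.13 without DTEC replicate 3) with cultures far apart at 32.1, 67 and 128 CPM against 23.9, 20.5 and 23 CPM untreated. The simple epithelial keratins KRT8 and KRT18 had log2 fold changes of -0.17 and -0.17 and were not called (adjusted p = 0.279 and 0.228), although both were called lower without DTEC replicate 3 (0.0193 and 0.0335). Of 21 tested epithelial junction genes 7 rose (3 to 10 over the alternatives) and 2 fell: ELF3, an epithelial transcription factor, and the tight junction gene CLDN1 rose by 1.32 and 1.07, while EPCAM fell by 0.52.

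FN1, fibronectin, had the largest gain in CPM of the mesenchymal list, at 88.6, 97.9 and 99.4 CPM untreated, 13169.5, 6343 and 7091 CPM in DTC and 796, 869 and 921 CPM in DTEC. It had come down from day 7 by 3.36 on the log2 scale and was still 3.18 above untreated cells on that scale (adjusted p = 1.17e-07). Of the 13 tested mesenchymal genes 6 rose and 2 fell against untreated cells, and 11 were lower than in DTC. The intermediate filament gene VIM was not called (10.8, 10.5 and 9.86 CPM untreated, 19.1, 13.6 and 9.23 CPM in DTEC, adjusted p = 0.0753, but 0.00187 without DTEC replicate 3), and SNAI1, a repressor of E-cadherin, fell by 1.54.

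Of 20 tested YAP and TEAD factors and their targets, 6 rose and 4 fell, shares near the 26.0% and 26.3% of all tested genes. CCN2, a matricellular protein, rose to 3.84, 2.6 and 4.42 CPM from 0.329, 0 and 0.202 CPM, and ANKRD1, a nuclear cofactor, measured 2.78, 3.37 and 2.97 CPM untreated, 154, 169 and 168 CPM in DTC and 40.2, 25.9 and 16.5 CPM in DTEC. AMOTL2, a feedback inhibitor of YAP, rose by 1.39. TEAD4, one of the TEAD factors, fell by 1.3.

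More Notch and Wnt genes fell than rose. Of 24 tested 12 fell and 6 rose, the latter a share near the 26.0% of all tested genes, with a median of -0.56. AXIN2, a standard readout and inhibitor of Wnt signalling, measured 1.49, 1.92 and 1.9 CPM untreated, 7.1, 6.71 and 7.36 CPM in DTC and 16.7, 14.1 and 17.8 CPM in DTEC (log2 fold change 3.19, adjusted p = 2.48e-09). RNF43, which removes Wnt receptors, rose from 0, 0 and 0.231 to 0.914, 2.44 and 3.11 CPM, with all its untreated counts in replicate 3, and LGR6, a receptor that amplifies Wnt signals, rose by 3.73. Not all Wnt feedback genes did so: ZNRF3, a relative of RNF43, fell by 1.08 and NKD1 was not called (log2 fold change 0.37, adjusted p = 0.125). JAG1 and JAG2, ligands of Notch, fell by 1.39 and 1.17, NOTCH1 by 0.98 and the Notch target NRARP by 0.97. Of 20 TGF-beta and BMP genes 4 rose and 5 fell, shares near the 26.0% and 26.3% of all tested genes. Among them were BMP4 with a rise of 1.29 and the BMP target ID1 with a fall of 1.0. The median of that list changed sign between alternatives. The call of ID1 was lost without untreated replicate 2 (adjusted p = 0.0656) or 3 (0.0598) or DTEC replicate 1 (0.0819) or 2 (0.0567).

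Lipid genes rose in most cases, by small steps. Of 19 cholesterol synthesis genes 13 rose and none fell (median log2 fold change 0.48). HMGCS1, an early enzyme of the pathway, measured 248, 209.8 and 223 CPM untreated, 529, 391 and 428 CPM in DTC and 431, 506 and 511 CPM in DTEC. MSMO1, INSIG1 and SREBF2, an enzyme, a sterol-regulated retention protein and the transcription factor of the pathway, rose by 1.55, 1.41 and 0.89. Of 23 fatty acid genes 14 rose and 3 fell: PPARA, a regulator of fatty acid oxidation, rose by 1.51 and the oxidation enzymes HADHA, HADHB and CPT1A by 0.45, 0.69 and 0.47, while FASN, fatty acid synthase, was not called (log2 fold change -0.49, adjusted p = 0.0731, but 0.0141 without untreated replicate 1 and 0.013 without DTEC replicate 3) and ELOVL6 fell by 0.85. FABP5, a fatty acid carrier, had 43.1, 40.0 and 42.4 CPM untreated and 1.98, 3.93 and 3.96 CPM in DTEC.

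More glycolysis genes fell than rose in DTEC against untreated cells, and most were higher than in DTC. Of 23 glycolysis and hypoxia genes 5 rose and 13 fell (median -0.40), with 15 higher and 2 lower than in DTC. The number that fell ran from 8 to 14 over the alternatives and was 8 with scaling by total counts. LDHA, lactate dehydrogenase, measured 2934, 2628 and 2672 CPM untreated, 1009.6, 919 and 919 CPM in DTC and 1560.0, 1725 and 2091 CPM in DTEC. PGAM1, PFKP and ENO1, enzymes of the pathway, fell by 1.05, 0.95 and 0.73. NDRG1, a stress gene induced in hypoxia, rose from 74.7, 82.3 and 77 to 214, 197 and 271 CPM. Of 13 mitochondrially encoded genes 12 fell (9 to 12 over the alternatives) and none rose, with a median of -0.60. The share of counts on all genes of the mitochondrial chromosome, these 13 included, was 2.5% to 2.77% in untreated libraries and 1.82% to 2.38% in DTEC libraries.

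Iron, redox and transport genes added single large changes. SLC40A1, the iron exporter ferroportin, rose from 10.6, 9.75 and 11.5 to 47.6, 51.9 and 52.2 CPM, STEAP4, a metalloreductase, from 3.05, 2.09 and 2.48 to 45.7, 29.5 and 20.4 CPM, and SLC11A2, an iron importer, by 1.37 on the log2 scale. STEAP3 fell by 1.18, and the transferrin receptor TFRC was not called (log2 fold change -0.04, adjusted p = 0.84); in all 7 of 18 iron genes rose and 3 fell. ABCC3, an organic anion exporter, measured 159.5, 179 and 171 CPM untreated, 155, 148 and 147 CPM in DTC and 540.2, 609 and 611 CPM in DTEC, the widest gain among 7 tested efflux transporters that was called. ABCG2, an exporter of many kinase inhibitors, fell by 0.72, and ABCB1 was at the counting floor in untreated cells and at 0.0914, 0.115 and 0 CPM in DTEC. NRF2 targets were mixed, with 7 of 19 genes of that list higher and 5 lower, beside 26.0% and 26.3% of all tested genes. NQO1, a quinone reductase, rose by 0.70 and ALDH3A1, an aldehyde dehydrogenase, by 1.22, whereas the aldo-keto reductase AKR1B10 and the sulfiredoxin gene SRXN1 fell by 0.55 and 0.74.

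Lysosome and autophagy genes rose in 13 of 20 cases and fell in 1. GABARAPL1, which coats autophagosomes, measured 18, 16.3 and 15.7 CPM untreated, 307, 256 and 245 CPM in DTC and 89.4, 66.8 and 51.5 CPM in DTEC. NEU1, a sialidase of the lysosome, and the protease gene CTSD rose by 1.56 and 0.80, while GLA, a galactosidase, fell by 1.36. Against DTC, 13 members were lower and 2 higher.

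The repair of trapped topoisomerase 1, the subject of the study's title, involved 20 tested genes, of which 1 rose and 9 fell in DTEC (median log2 fold change -0.18). The number that fell ran from 6 to 9 over the alternatives. With scaling by total counts 2 rose and 6 fell, with a median of -0.01. PARP1, which recruits repair factors to such breaks, measured 309.9, 291 and 291 CPM untreated, 152, 101 and 101 CPM in DTC and 156, 159 and 179 CPM in DTEC. Its level remained below that of untreated cells by 0.85 on the log2 scale (adjusted p = 0.00013). LIG3, a DNA ligase, and SPRTN, a protease of DNA-protein crosslinks, fell by 0.55 and 0.57. TDP1 and TDP2, the phosphodiesterases that release trapped topoisomerases, were not called (adjusted p = 0.905 and 0.82). TOP1 decreased by 0.41, a call lost under 7 alternatives, with adjusted p as high as 0.187 under scaling by total counts, and the others were upper-quartile scaling (0.093) and the omission of untreated replicate 1 (0.109), 2 (0.0743) or 3 (0.0704) or of DTEC replicate 2 (0.0793) or 3 (0.116).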

How the data were processed

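Polyadenylated RNA of PC9 cultures was sequenced with a stranded mRNA kit and 101 bp paired reads, per the labels' protocols. The authors deposited 1 table of each gene's estimated count, not scaled to depth, for 12 libraries. For these estimated counts the submitters' processing notes name Bowtie2 2.5.2, RSEM 1.3.1, DESeq2 1.40.2 and the build GRCh38, and the strand setting of the counting is not given in the sources used here. Estimated counts divide reads that fit several genes, which makes the counts of near-identical genes uncertain.

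From the deposited counts, rounded to whole numbers, edgeR 4.0.16 (R 4.3.3, limma 3.58.1) fitted all 12 libraries of 4 groups after TMM scaling and filterByExpr, with quasi-likelihood F tests and Benjamini-Hochberg adjustment over 17115 genes. The common coefficient of variation between cultures was 14.6%. The standard error is the log2 fold change divided by the square root of F. The procedure was checked on simulated data. A fold of at least 2 defines the 2-fold class, and 3 counts per library the floor for genes without signal; intervals and floors cover counting error only. Gene names came from a separate reference of gene symbols (62700 of 62754 identifiers), and coordinates from GENCODE 29 on GRCh38, which held 58261. Promoters came from RefSeq on GRCh38.p14.

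Named genes were the 12 rising and 12 falling with the largest fold change among 2-fold, protein-coding genes of at least 10 CPM whose groups do not overlap, the 5 largest changes in CPM each way, TDP1, TOP1, TDP2 and EGFR, and, for each list, up to 4 called members and those needed to describe its roles. Members, lists and rules were chosen with earlier results of these data known. Alternatives were other scalings, count filters, DESeq2 1.42.0, a fit of the compared libraries alone, a replicate block and the omission of each library. Some members of the gene lists are counted but not reported here by name.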

Additional observations from a re-analysis of the deposited data

How the results depend on the processing

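The number of genes called in DTEC against untreated cells (8955) was 7766 to 8585 when 1 library was left out, and 8460 to 9255 under the other alternatives. The 2-fold class held 2259 higher genes (2175 to 2243 without 1 library) and 1147 lower genes (943 to 1338 without 1 library); with libraries scaled by total counts alone the lower class shrank to 716. That scaling moved the median log2 fold change of all genes from 0.018 to 0.186, and upper-quartile scaling to 0.132, so that the split of called genes, 4449 higher and 4506 lower, became 5748 and 3269, or 5263 and 3637. In DTEC against DTC 9480 genes were called (8332 to 10610 without 1 library), 4923 of them higher and 4557 lower, against 3555 and 5951 with total counts and 3683 and 5840 with the upper quartile. Replicate numbers do not pair the cultures: same-numbered deviations correlated at 0.098, 0.002 and 0.016 across genes, and the fit with a replicate block called 9255 genes, with 2218 and 1148 in the 2-fold class, and 9732 against DTC. Of the 232 tested genes that the text names, 205 kept their call or lack of a call under every alternative run, 14 lost the call under at least 1 (CCDC85B, TOP1, EGFR, VWF, CCNB2, CXCL8, FOXO1, ID1, MCM6, PDCD1LG2, SAA1, SLC3A2, SPRY1 and TGFA) and 13 gained one (ABCB1, BOLA2, CDH1, CDH5, ETV4, FASN, HSPB1, IRS2, KRT8, KRT18, KRT19, NKD1 and VIM); none reversed. Without 1 library the log2 fold change of LBP became 2.35 (without DTEC replicate 1), that of FOXJ1 4.73 (untreated replicate 2), that of CCN2 5.05 (untreated replicate 1) and that of CASP1 6.14 (untreated replicate 3). List members not reported here by name are outside the count of 232, and some of them lost their call under an alternative. The medians of 5 of 40 lists changed sign. Depth limits genes under about 3 counts per library.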

Other observations

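The following groups were chosen after the values had been seen and are given as values without a test of the group. Of genes of amino acid supply under the stress factor ATF4, 19 of 24 tested rose and 2 fell, with a median log2 fold change of 1.31, and 15 were higher and 3 lower than in DTC. ASNS, asparagine synthetase, measured 22.8, 20.2 and 20.9 CPM untreated, 67.6, 78.5 and 72.5 CPM in DTC and 276, 234 and 186 CPM in DTEC. CTH and CBS, enzymes that make cysteine from methionine, reached 94.4, 68 and 42.4 and 47, 48 and 39.4 CPM from 7.94, 5.19 and 7.33 and 3.94, 4.05 and 4.36 CPM. PHGDH, which opens serine synthesis, was lower at day 7 (143, 125 and 142 CPM) than before drug (187, 189 and 180.3 CPM) and higher at day 28 (563, 579 and 637 CPM). ATF4 itself rose by 0.73, the pseudokinase gene TRIB3 by 1.22 and the stress hormone gene ADM2 by 4.01, while ATF5, a related factor, fell by 1.14. The amino acid response element (TGATGNAAN, either strand) was present in 4 of 21 promoters of the list (ASNS, CHAC1, ATF3 and SLC3A2; 19.0%) and in 209 of all 11889 (1.76%). Of 20 cytosolic tRNA synthetases 10 rose and 6 fell: the enzymes for cysteine (CARS1) and alanine (AARS1) rose by 1.23 and 1.1, and those for valine (VARS1) and phenylalanine (FARSA) fell by 1.2 and 1.06.

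Protein folding genes lay at the other end. Of 22 chaperonin and heat shock protein genes 21 fell and none rose (18 to 22 fell over the alternatives), with a median of -1.03, and all 8 subunits of the cytosolic chaperonin were among them. TCP1, a subunit of that complex, measured 756, 642 and 669 CPM untreated, 284, 263 and 272 CPM in DTC and 298, 305 and 322 CPM in DTEC. HSPA4L fell by 1.96 and HSPE1, the mitochondrial cochaperonin, by 1.37, whereas HSPB1 was not called (log2 fold change -0.39, adjusted p = 0.143, but 0.0273 without DTEC replicate 3).

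A small set of genes went from the counting floor to clear expression. In 21 genes, 19 of them protein-coding, each untreated library had at most 3 counts and the DTEC mean was at least 1 CPM; 16 of the 21 were also at 1 CPM or more in DTC. GABRP, a subunit of a neurotransmitter receptor, had 4.16, 4.89 and 3.93 CPM in DTC and 16.8, 9.21 and 5.55 CPM in DTEC, at least 114-fold above the floor of untreated cells. NNMT, which methylates nicotinamide, had 6.73, 3.67 and 1.07 CPM in DTEC, IFITM1, an interferon-induced membrane protein, 3.23, 1.8 and 1.73 CPM and CASP1, the inflammasome caspase, 2.16, 0.879 and 1.07 CPM. In the other direction 7 genes, 3 of them protein-coding, went from a mean of at least 1 CPM in untreated cells to the floor in DTEC. Such a mean could rest mostly on 1 library, as in a protein-coding gene with 6.75, 0.236 and 0.0577 CPM untreated.

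The cultures differed among themselves. Among genes at 10 CPM or more, the median coefficient of variation between cultures was 6.13% in untreated cells, 14.3% in DTC and 8.97% in DTEC. More than 2-fold differences between cultures were seen in 49 of 9483, 484 of 9836 and 67 of 9647 such genes. In DTEC 4 genes differed more than 4-fold: BOLA2, C4B, HLA-B and KRT13. C4B, HLA-B and CD74 were highest in replicate 1 and lowest in replicate 3 (19.9, 6.11 and 0.934 CPM for CD74), and KRT13 had the opposite order.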
